A study of Rattus norvegicus with 2 samples.

Results

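The enzymes described here are those that oxidise, hydrolyse or conjugate drugs, plant compounds and other foreign chemicals, read from the myocardium of spontaneously hypertensive rats that had or had not received an ingested herbal preparation. They were chosen by name alone, as every protein-coding row whose symbol is Cyp, Ces or Nat followed by a digit or begins with Ugt, Sult, Ephx or Fmo. This took 82 of 13706 rows. Of these, 7 were taken by name only: fibromodulin (Fmod), a matrix proteoglycan, and Nat6, Nat8b, Nat8l, Nat9, Nat10 and Nat14, which are not arylamine acetyltransferases.

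The KXH rats received the high dose of Jiangya Kangxian formula (9.6 g/kg into the stomach) and the others distilled water, both for 12 weeks. All animals were of the same hypertensive strain, an inbred line that develops high blood pressure and an enlarged heart. There was no normotensive group among the samples used here, so both groups share the disease background. Each group had 1 library of myocardial total RNA, and how many animals went into it is not stated in the labels. No test between the treatments is therefore possible, no difference has a replicate check, and "higher" and "lower" describe these 2 libraries. Ratios are the RPKM value (reads per kilobase per 1000000 reads) of the KXH library over that of the water library. Each is given with a 95% exact interval that covers counting error only and holds no variation between animals.

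Foreign compounds are handled in steps. Cytochromes P450 and flavin monooxygenases add or expose a reactive oxygen, epoxide hydrolases and carboxylesterases open epoxides and esters, and transferases then attach glucuronic acid, sulfate or acetyl groups that make the product easier to excrete. Liver and intestine hold most of this capacity. In the heart the same families are better known for signalling lipids, because P450s turn arachidonic acid into epoxides and hydroxy acids that act on vessels, and soluble epoxide hydrolase removes the epoxides. Receptors such as the aryl hydrocarbon receptor (Ahr), the pregnane X receptor (Nr1i2) and the constitutive androstane receptor (Nr1i3) can raise these genes when a ligand enters the body.

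The protein-coding tables summed to 14.1 M reads with KXH and 15.1 M with water (M, 1000000). Cardiomyocyte genes dominated both, and the 10 markers used for this check were all listed. In a transcript of 2000 bases 1 read was worth 0.0356 RPKM with KXH. Symbols were compared with RefSeq names, of which 81 members matched a current one and Nat6 an older one (now Naa80).

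Most of the classical liver enzymes were at or near the limit of detection. Of the 82 members, 67 were listed in the KXH table and 80 in the water table, 65 of them in both. In 22 members neither library had more than 3 reads, and 39 members reached a mean of 1 RPKM over the libraries. The Cyp3a genes, which oxidise a large share of medicines in liver, had 0 reads with KXH and 4 with water over 3 rows. The Cyp2c genes, another large drug-oxidising group, had 2 reads with KXH and 3 with water over 3 rows. The Ugt2b genes, which glucuronidate steroids and drugs, had 8 reads with KXH and 6 with water over 4 rows. At these depths no difference was detectable. The 43 members under a mean of 1 RPKM summed to 9.52 RPKM with KXH and 10.9 RPKM with water.

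A small set of members carried most of the signal. The 15 members with a mean of at least 10 RPKM made up 80.6% of the members' summed RPKM with KXH and 79.7% with water. Soluble epoxide hydrolase (Ephx2) ranked highest with KXH, and the flavin monooxygenase Fmo2 with water. Then came Nat6, which acetylates actin and is not known for drug metabolism, the fatty acid oxidising P450 Cyp4b1, the sterol hydroxylase Cyp27a1 and the phenol sulfotransferase Sult1a1, all between 26.8 and 38.8 RPKM in both libraries. Summed over all members, the level was 437 RPKM with KXH and 455 with water.

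**Figure D1:**
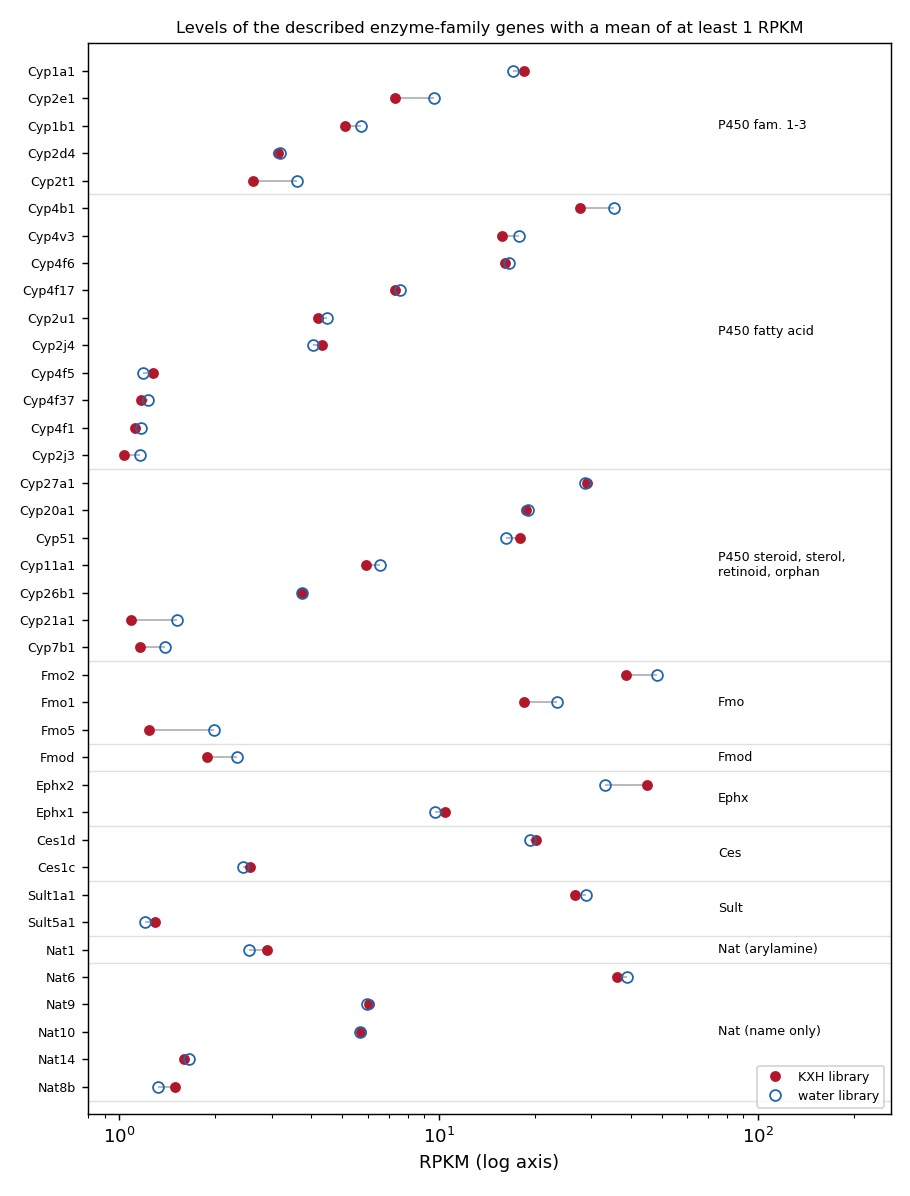
RPKM (log axis) of the described members with a mean of at least 1 RPKM, with a filled point for the KXH library and an open one for the water library, 1 library each, grouped by role. Most pairs of points lie close together, and the widest gaps among the abundant genes belong to Ephx2, Cyp4b1, Fmo1 and Fmo2.

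No member with a mean of at least 1 RPKM passed 1.5-fold on the scale used for these counts. Among these 39 members, 0 were higher and 0 lower with KXH by 1.5-fold or more on the log2(RPKM + 1) scale, which shrinks the ratios of low genes. The plain RPKM ratio of Fmo5, a low gene, was 0.625 and did pass it. Over all 10467 protein-coding genes that reach this mean, 0.497% were as far above and 0.774% as far below. With shares this small, 0 of 39 does not set the members apart from all genes. At 2-fold the members again gave 0 in each direction, against 0.0382% and 0.105% of all genes. At 1.25-fold, a threshold added after the values were seen, 1 member was higher (Ephx2) and 5 were lower (Cyp2e1, Cyp2t1, Cyp4b1, Fmo1 and Fmo5), which is 2.56% and 12.8% of the 39 members. The same threshold was passed by 3.43% of all genes upward and 5.77% downward.

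The median of the members lay close to that of the other genes. Their median log2 ratio was -0.04, against -0.02 over all genes kept, and 16 members were higher and 23 lower (59.0% lower, against 55% of all genes). The counting interval lay above 1 for 2 members (5.13%), against 11.2% of all genes, and below 1 for 6 members (15.4%), against 16.3%. The share with an interval off 1 is thus near or under that of all genes. Among genes with at least 200 reads the 1.25-fold threshold gave another picture, as 4 of 24 members passed it in either direction, against 5.92% of all 8761 such genes. Without the members taken by name only, 33 were left, with 0 past 1.5-fold on the log2(RPKM + 1) scale. They had 2 intervals above 1 and 6 below, and a median log2 ratio of -0.04. Among the 39, the lowest log2 ratio was -0.41 and the highest 0.43.

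**Figure D2:**
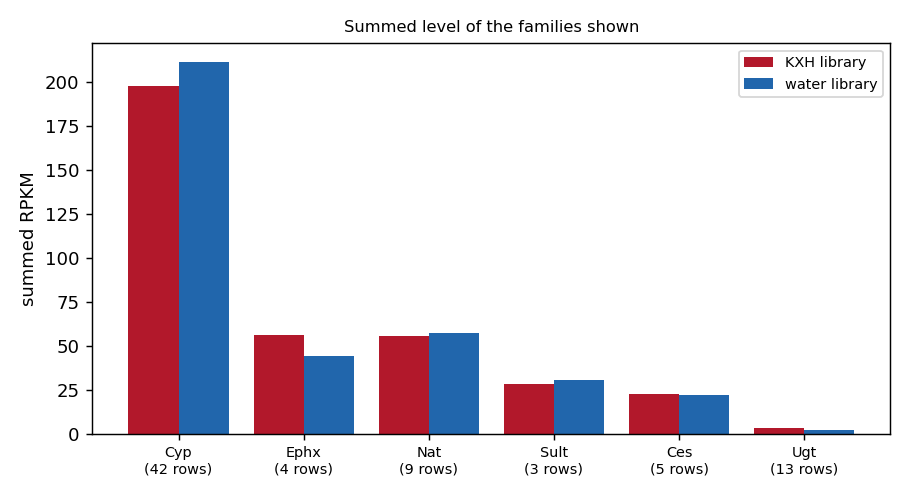
Summed RPKM of all members of the Cyp, Ephx, Nat, Sult, Ces and Ugt families (bars from 0), with the KXH library left and the water library right of each pair, 1 library each. The Cyp family holds the largest sum in both libraries, the Ephx bar is higher with KXH, and the Ugt bars are close to 0. Most of the Nat sum comes from the 6 Nat genes taken by name only, at 51.5 RPKM with KXH and 54.0 RPKM with water.

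Among members with at least 200 reads, the highest ratio belonged to an epoxide hydrolase. Ephx2, which converts epoxides of arachidonic acid to diols, had 44.9 RPKM with KXH (1258 reads), against 33.1 RPKM with water (995 reads). Its ratio was 1.36 (1.25 to 1.48), and of the 2412 genes with at least as many reads 0.912% lay farther from 1. Ephx1, the microsomal enzyme that opens epoxides of foreign compounds, had 10.5 RPKM with KXH and 9.74 RPKM with water, with a ratio of 1.08 (0.904 to 1.29). For the hydrolase best known for drug metabolism, then, no difference was detectable. Ephx3, another epoxide hydrolase, had 5 reads with KXH and 21 with water, a ratio of 0.256 (0.0753 to 0.697), and is named after its value was seen. Ephx4 had 13 reads in each library. The family summed to 56.4 RPKM with KXH, against 44.4 RPKM with water, and Ephx2 alone accounts for nearly all of that gap.

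Genes that supply or use the same lipids gave mixed values. Of 13 such genes at or above a mean of 1 RPKM, a list that includes Ephx1 and Ephx2, 8 were higher and 5 lower, with a median log2 ratio of 0.13. The counting interval lay above 1 for 6 and below 1 for 2 of them, against 11.2% and 16.3% of all genes. The secreted phospholipase A2 Pla2g2a, which releases fatty acids from phospholipids, lay farthest apart, at 67.6 RPKM with KXH (728 reads), against 34.2 RPKM with water (395 reads), a ratio of 1.98 (1.75 to 2.24). It was the only gene of this list past 1.5-fold. Prostacyclin synthase (Ptgis), itself a P450 by structure but named outside the rule, had 17.8 RPKM with KXH and 14.95 RPKM with water (ratio 1.19, 1.03 to 1.37). Cytosolic phospholipase A2 (Pla2g4a), which releases arachidonic acid from membranes, had 6.18 RPKM with KXH and 7.34 RPKM with water (0.841, 0.709 to 0.997).

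The P450s that act on fatty acids and eicosanoids were, in sum, lower. Their 14 rows added up to 80.7 RPKM with KXH, against 91.3 RPKM with water. Of the 10 that reached a mean of 1 RPKM, 8 were lower, against 55% of all genes. The median log2 ratio of these 10 was -0.04, against -0.02 over all genes kept. The counting interval lay below 1 for 2 of the rows and above 1 for 0. Cyp4b1, which hydroxylates fatty acids and activates some plant toxins, had 27.7 RPKM with KXH (747 reads), against 35.5 RPKM with water (1028 reads). Its ratio was 0.780 (0.709 to 0.858), with 1.82% of the 3024 genes of at least as many reads farther from 1. Cyp4v3, whose human counterpart hydroxylates fatty acids at the omega end, had 15.8 RPKM with KXH and 17.9 RPKM with water, a ratio of 0.887 (0.802 to 0.981). These 2 genes hold most of the gap in the sum.

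Among the arachidonic acid enzymes proper no difference was detectable, although the intervals of the low genes were wide. Cyp2j4, an epoxygenase, had 4.31 RPKM with KXH and 4.04 RPKM with water (1.06, 0.818 to 1.39). Cyp2j3, the epoxygenase described from rat heart, had 1.03 RPKM with KXH (52 reads) and 1.16 RPKM with water (63 reads), a ratio of 0.887 (0.602 to 1.30). The third Cyp2j row, Cyp2j10, had 3 reads in each library. The Cyp4f genes, which hydroxylate leukotriene B4 and arachidonic acid, summed to 27.1 RPKM with KXH and 27.8 RPKM with water. Of those, Cyp4f6 was at 16.1 RPKM with KXH and 16.6 RPKM with water (0.974, 0.849 to 1.12), and Cyp4f17 at 7.33 RPKM with KXH and 7.56 RPKM with water (0.969, 0.804 to 1.17). Cyp4f1, Cyp4f5 and Cyp4f37 lay between 1.12 and 1.27 RPKM in either library, each with an interval that includes 1, and Cyp4f18 had 1 read with KXH and 4 with water. Cyp2u1, which acts on long-chain fatty acids, had 4.21 RPKM with KXH and 4.48 RPKM with water (0.940, 0.734 to 1.20). Cyp4a1, a target of the fatty acid receptor Ppara in liver, had 12 reads with KXH and 10 with water, and Cyp4a3 had 0 with KXH and 1 with water.

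Among P450 families 1 to 3, which act mainly on foreign compounds, the most abundant gene was the standard reporter of the aryl hydrocarbon receptor. Cyp1a1 had 18.5 RPKM with KXH (679 reads) and 17.1 RPKM with water (677 reads). Its ratio of 1.08 (0.967 to 1.20) gave no detectable difference, and the interval ends short of 1.5-fold. Cyp1b1, a relative under the same receptor, had 5.09 RPKM with KXH and 5.71 RPKM with water (0.891, 0.721 to 1.10). Cyp2e1, the ethanol-inducible P450, had 7.32 RPKM with KXH (166 reads), against 9.69 RPKM with water (236 reads), a ratio of 0.755 (0.616 to 0.925). It is the only gene of these families whose counting interval excluded 1.

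Other members of these families differed less than their counting error. Cyp2d4, a drug-oxidising P450 known from rat brain, had 3.15 RPKM with KXH and 3.20 RPKM with water (0.986, 0.715 to 1.36). Cyp2t1 had 2.62 RPKM with KXH (59 reads) and 3.60 RPKM with water (87 reads), a ratio of 0.728 (0.514 to 1.03). Cyp2d1 had 19 reads with KXH and 22 with water, Cyp2s1 had 10 with KXH and 15 with water, and Cyp2d5 had 4 with KXH and 1 with water. Cyp2d2 had 0 reads with KXH and 1 with water. In all, 15 rows of these families summed to 38.01 RPKM with KXH and 41.0 RPKM with water.

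P450s with fixed roles in the body's own chemistry were, as a sum, the same to within counting error, at 79.2 RPKM with KXH and 79.3 RPKM with water over 13 rows. For their reads the ratio was 1.01 (0.957 to 1.06). Cyp27a1, which hydroxylates the side chain of cholesterol, had 29.2 RPKM with KXH and 28.7 RPKM with water (1.02, 0.926 to 1.12). Cyp51, the lanosterol demethylase of cholesterol synthesis, had 18.0 RPKM with KXH and 16.2 RPKM with water (1.11, 0.9996 to 1.23). The orphan enzyme Cyp20a1, whose substrate is not established, had 18.8 RPKM with KXH and 19.1 RPKM with water (0.986, 0.874 to 1.11). Cyp26b1, which breaks down retinoic acid, had 3.74 RPKM with KXH and 3.73 RPKM with water (1.00, 0.837 to 1.20).

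Steroid-forming P450s were present at low levels. Cyp11a1, which starts steroid synthesis by cutting the cholesterol side chain, had 5.94 RPKM with KXH and 6.54 RPKM with water (0.909, 0.715 to 1.15). Cyp21a1, the steroid 21-hydroxylase, had 30 reads with KXH and 45 with water (0.716, 0.436 to 1.16). Cyp7b1, an oxysterol hydroxylase, had 43 reads with KXH and 55 with water (0.840, 0.550 to 1.27), and Cyp17a1, which makes androgen precursors, had 0 reads with KXH and 3 with water. Cyp39a1, another oxysterol hydroxylase, had 27 reads with KXH and 46 with water (0.630, 0.377 to 1.04), and Cyp46a1, which makes 24-hydroxycholesterol in brain, had 14 with KXH and 15 with water. Cyp2r1, a vitamin D 25-hydroxylase, had 3 reads with KXH and 7 with water, while Cyp27b1 and Cyp8b1 had at most 3 in each library.

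Flavin monooxygenases, which oxidise nitrogen and sulfur in drugs and dietary amines, were led by a pair that was lower with KXH. Fmo2, the main form of the lung in many mammals, had 38.5 RPKM with KXH (1093 reads), against 48.2 RPKM with water (1469 reads), a ratio of 0.799 (0.738 to 0.865). Fmo1, a broad-substrate form, had 18.5 RPKM with KXH (531 reads), against 23.5 RPKM with water (725 reads), a ratio of 0.787 (0.702 to 0.881). Of the genes with at least as many reads, 2.36% lay farther from 1 than Fmo2 and 1.99% farther than Fmo1.

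Fmo4 and Fmo5 were low in both libraries and lower with KXH. Fmo5, which inserts oxygen next to carbonyl groups, had 1.24 RPKM with KXH (39 reads) and 1.98 RPKM with water (67 reads), a ratio of 0.625 (0.410 to 0.941). Fmo4 had 0.625 RPKM with KXH (20 reads) and 1.22 RPKM with water (42 reads), a ratio of 0.511 (0.284 to 0.891). Fmod, which shares only its first letters, had 1.88 RPKM with KXH and 2.34 RPKM with water (0.806, 0.593 to 1.09).

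The promoters of Fmo1 and Fmo2 are printed because these are the best covered flavin monooxygenases that were lower together. They lie near each other on chromosome 13 of GRCr8, at chr13:77747617-77747916 and chr13:77777485-77777784, both on the minus strand, and are taken from RefSeq as 250 bases before to 50 bases after the annotated start. They were searched for the core of the aryl hydrocarbon receptor element, GCGTG, on either strand, and neither holds it, so no base is in capitals.
Fmo1: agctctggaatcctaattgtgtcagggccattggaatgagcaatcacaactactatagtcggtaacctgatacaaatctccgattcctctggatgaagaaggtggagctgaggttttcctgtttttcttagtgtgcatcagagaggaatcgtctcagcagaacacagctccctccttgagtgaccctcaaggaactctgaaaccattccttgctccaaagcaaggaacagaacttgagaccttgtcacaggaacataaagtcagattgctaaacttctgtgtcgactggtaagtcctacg
Fmo2: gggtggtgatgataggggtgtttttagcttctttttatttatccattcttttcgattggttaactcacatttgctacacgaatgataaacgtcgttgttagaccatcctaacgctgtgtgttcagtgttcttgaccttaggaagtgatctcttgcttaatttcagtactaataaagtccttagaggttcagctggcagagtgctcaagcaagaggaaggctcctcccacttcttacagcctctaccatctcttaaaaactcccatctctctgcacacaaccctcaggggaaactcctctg

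**Figure D3:**
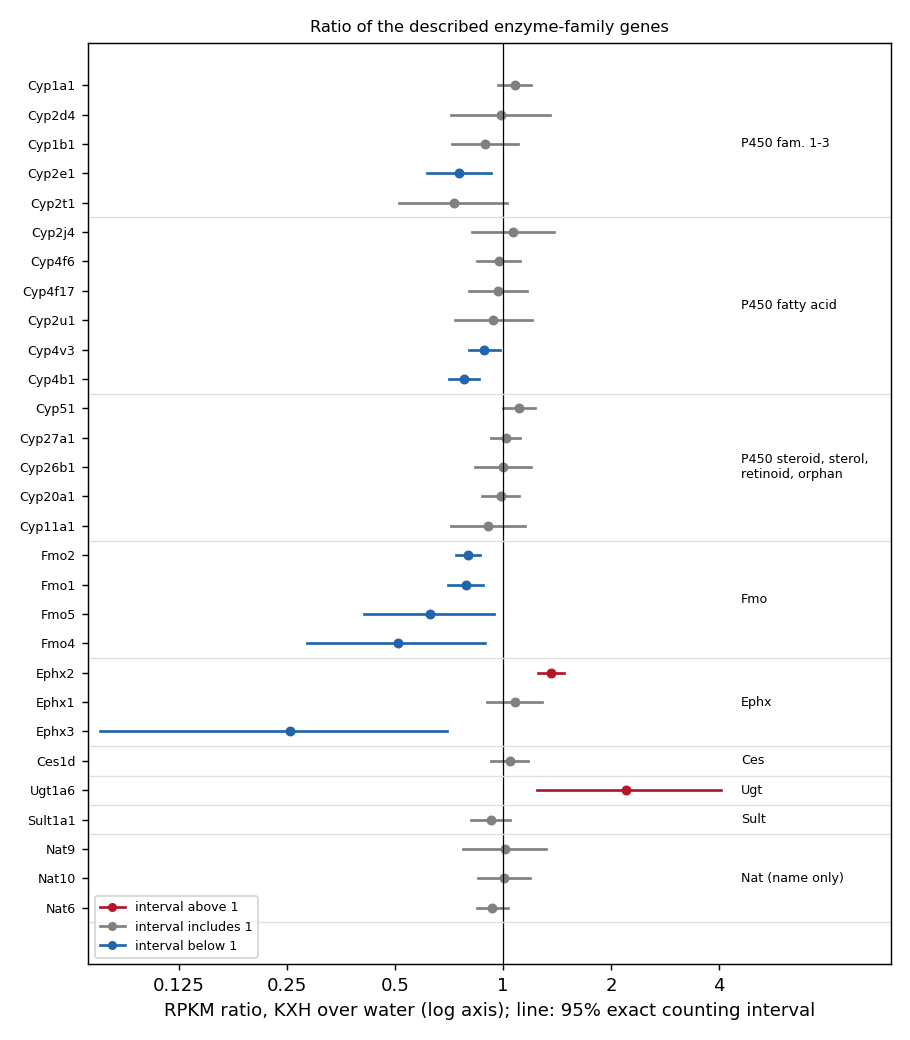
RPKM ratio of KXH over water (log axis) for the described members, 1 library per group, where points are ratios and lines the 95% exact counting intervals. Ephx2 and Ugt1a6 have intervals above 1, while Cyp2e1, Cyp4b1, Cyp4v3, Ephx3, Fmo1, Fmo2, Fmo4 and Fmo5 have intervals below 1.

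UDP-glycosyltransferases were scarce, and their summed reads were higher with KXH. Their 13 rows had 102 reads with KXH and 69 with water, which is 3.19 RPKM against 1.999 RPKM. The ratio of their reads was 1.59 (1.16 to 2.19). The rows did not all share this, as only Ugt1a6 had an interval off 1. Of the 13 rows, 4 were listed only with water and 1 only with KXH. Most of these reads belonged to the Ugt1a rows, alternative forms of 1 gene that differ in their first exon and share the rest, with 91 reads with KXH and 59 with water. Ugt1a6, which conjugates small phenols and is a classical target of the aryl hydrocarbon receptor, had 1.18 RPKM with KXH (39 reads) and 0.535 RPKM with water (19 reads). Its ratio of 2.20 (1.24 to 4.04) is the highest of the members with at least 30 reads. Ugt1a7c had 38 reads with KXH and 27 with water (1.51, 0.899 to 2.57). Ugt1a5 had 7 reads with KXH and 2 with water, Ugt1a8 had 4 in each library, and Ugt1a3 had 0 with KXH and 4 with water, with an interval that reached 1.63. Ugt1a1, Ugt1a2, Ugt1a9, Ugt2b7, Ugt2b10 and Ugt2b35 had at most 3 reads in each library, and Ugt2b1 had 5 with KXH and 3 with water. No Ugt row reached a mean of 1 RPKM, so none is among the 39 members counted above. Ugt8, which makes galactosylceramide for myelin, had 3 reads with KXH and 4 with water.

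Ugt1a6 and Cyp1b1 are both textbook targets of the aryl hydrocarbon receptor, and their promoters are printed because the ratios of these genes lay on opposite sides of 1, at 2.20 and 0.891, although the interval of Cyp1b1 includes 1. The promoters are at chr9:96194768-96195067 and chr6:21094315-21094614 of GRCr8, both on the plus strand, from RefSeq. Capitals mark the core GCGTG or its reverse complement CACGC. Counted from the start site, the core of Ugt1a6 begins 133 bases upstream, and those of Cyp1b1 begin 81 bases upstream on the opposite strand and 20 bases upstream on the given strand.
Ugt1a6: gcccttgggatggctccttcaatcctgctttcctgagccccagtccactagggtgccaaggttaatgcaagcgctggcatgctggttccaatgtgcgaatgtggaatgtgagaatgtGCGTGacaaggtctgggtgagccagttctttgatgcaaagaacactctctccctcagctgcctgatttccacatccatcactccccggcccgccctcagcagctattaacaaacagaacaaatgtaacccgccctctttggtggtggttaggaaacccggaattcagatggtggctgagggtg
Cyp1b1: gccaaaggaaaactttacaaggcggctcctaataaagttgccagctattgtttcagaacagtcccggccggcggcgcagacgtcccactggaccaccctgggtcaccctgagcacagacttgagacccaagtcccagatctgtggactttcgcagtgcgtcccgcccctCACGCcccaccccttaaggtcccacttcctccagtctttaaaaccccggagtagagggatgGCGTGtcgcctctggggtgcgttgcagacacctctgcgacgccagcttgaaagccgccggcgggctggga

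The core is common. It occurs in 29.7% of all 33469 promoters of that table and in those of 24 of the 66 members that have a promoter there (36.4%), among them Ugt1a3, Ugt1a7c, Ephx3 and Fmo5. A match describes these letters only and does not show that a factor binds.

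Sulfotransferases and carboxylesterases lay within counting error of the water library. Sult1a1, which sulfates phenols, had 26.8 RPKM with KXH (460 reads) and 29.0 RPKM with water (535 reads), a ratio of 0.923 (0.814 to 1.05). Sult5a1 had 19 reads in each library, and Sult6b1 had 0 with KXH and 3 with water. Ces1d, a lipid and drug ester hydrolase, had 20.2 RPKM with KXH (549 reads) and 19.4 RPKM with water (565 reads), a ratio of 1.04 (0.926 to 1.18). Its relative Ces1c had 67 reads with KXH and 68 with water (1.06, 0.744 to 1.51). Ces2c, an intestinal and liver type, had 0 reads with KXH and 5 with water, and the interval of its ratio reached up to 1.17. Ces1a and Ces5a had at most 1 read in each library.

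The arylamine acetyltransferases, which acetylate hydrazine drugs and aromatic amines, were low. Nat1 had 2.91 RPKM with KXH (86 reads) and 2.55 RPKM with water (81 reads), a ratio of 1.14 (0.832 to 1.56). Nat2 had 18 reads in each library, and Nat3 had 2 with KXH and 0 with water. Of the genes that carry the Nat name only, Nat6 was at 36.3 RPKM with KXH and 38.8 RPKM with water (0.935, 0.845 to 1.03). Nat10, which acetylates cytidine in RNA, was at 5.71 RPKM with KXH and 5.67 RPKM with water (1.01, 0.851 to 1.19). Nat9 was at 6.05 RPKM with KXH and 5.98 RPKM with water (1.01, 0.774 to 1.32). Nat14 and Nat8b lay between 1.32 and 1.66 RPKM in either library with intervals that include 1. Nat8l, which makes N-acetylaspartate, had 17 reads with KXH and 30 with water (0.609, 0.315 to 1.14).

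**Figure D4:**
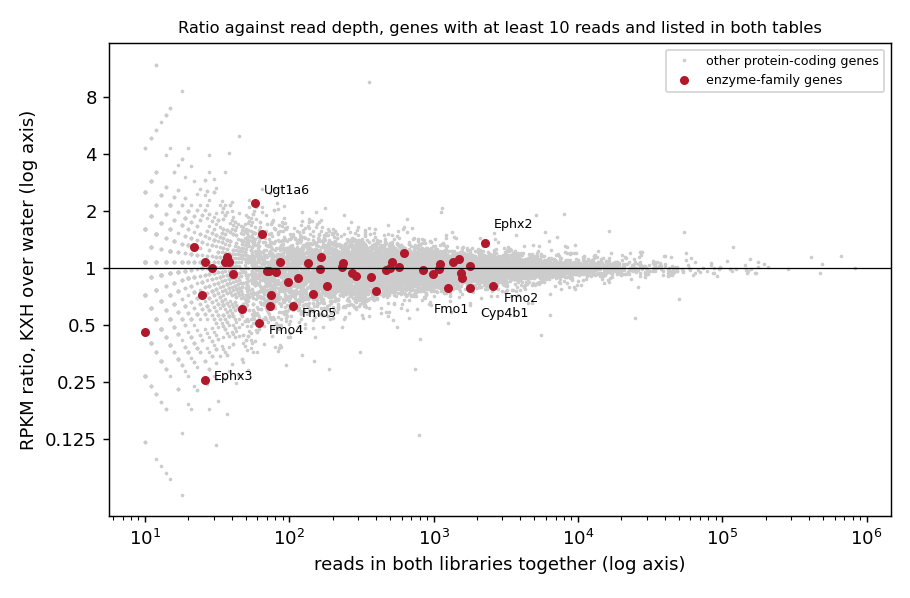
RPKM ratio of KXH over water (log axis) against the reads of both libraries together (log axis) for genes with at least 10 reads and listed in both tables, with members in red and other protein-coding genes in grey. Members lie within the cloud of other genes, with Ephx2 near its upper edge, Fmo1, Fmo2 and Cyp4b1 near its lower edge, and the widest ratios, Ephx3 and Ugt1a6, at few reads.

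Receptors that switch these enzymes on gave mixed values. Of 16 receptors and partners that reached a mean of 1 RPKM, 8 were higher and 8 lower. On the log2(RPKM + 1) scale 0 passed 1.5-fold, although the plain RPKM ratio of Nr1i2, which is low, did. The counting interval lay above 1 for 3 and below 1 for 2, against 11.2% and 16.3% of all genes. Ppara had 62.8 RPKM with KXH and 58.4 RPKM with water (1.08, 1.01 to 1.15). Nr1i3, which drives Cyp2b and other drug enzymes in liver, had 8.19 RPKM with KXH (176 reads) and 6.20 RPKM with water (143 reads), a ratio of 1.32 (1.05 to 1.66). Nr1i2, which drives Cyp3a, had 1.40 RPKM with KXH (46 reads) and 0.822 RPKM with water (29 reads), a ratio of 1.70 (1.05 to 2.81). Ahr itself was on the other side, at 5.81 RPKM with KXH and 6.84 RPKM with water (0.849, 0.747 to 0.966). Nfe2l2, which encodes the oxidant sensor Nrf2, had 28.7 RPKM with KXH and 30.3 RPKM with water (0.949, 0.868 to 1.04).

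Target lists were made for the aryl hydrocarbon receptor and Nrf2, and neither showed a common direction. Of 4 aryl hydrocarbon receptor targets that reached a mean of 1 RPKM, 2 were higher and 2 lower, and no counting interval excluded 1. Ugt1a6, on the same list but under that mean, had an interval above 1 (ratio 2.20, 1.24 to 4.04). Ahrr, also under it, had a ratio of 0.654 (0.311 to 1.33). Of 15 Nrf2 targets, 7 were higher and 8 lower. The interval lay above 1 for 3 and below 1 for 2, against 11.2% and 16.3% of all genes. Ephx1 is a member of that list too, and its interval included 1.

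The electron supply of the P450s was slightly lower in its main component. Por, the reductase that feeds electrons to microsomal P450s, had 34.5 RPKM with KXH and 38.8 RPKM with water (0.889, 0.823 to 0.961). Over the 12 genes for electron transfer and cytochrome b5, 6 were higher and 6 lower, with 0 intervals above 1 and 2 below. Of 12 genes that make the donors for conjugation, 9 were lower, against 55% of all genes. Their median log2 ratio was -0.06, against -0.02 over all genes kept. Papss2, which makes the sulfate donor, had 8.05 RPKM with KXH and 9.45 RPKM with water (0.852, 0.745 to 0.974).

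Enzymes and transporters outside the named families completed the pathway. For comparison with the counts below, 55% of all genes kept were lower, 11.2% had an interval above 1 and 16.3% one below. Of 19 glutathione transferases, 7 were higher and 12 lower, with 3 intervals above 1 and 5 below. Gstt2 lay farthest apart, at 7.31 RPKM with KXH and 10.6 RPKM with water (0.690, 0.555 to 0.856). Of 27 other oxidoreductases, 14 were higher and 13 lower, with 4 intervals above 1 and 7 below. Retsat, which saturates retinol, was at 61.9 RPKM with KXH (1614 reads), against 140 RPKM with water (3932 reads), a ratio of 0.441 (0.416 to 0.467). Cbr1, a carbonyl reductase that acts on drugs and prostaglandins, was at 5.90 RPKM with KXH (82 reads) and 3.55 RPKM with water (53 reads), a ratio of 1.66 (1.16 to 2.39). On the log2(RPKM + 1) scale these were the genes of that list past 1.5-fold in either direction. Aldh1a2 passed it on the plain RPKM ratio only (1.52, 1.12 to 2.08). Of 15 methyltransferases and hydrolases, 6 were higher and 9 lower, with 0 intervals above 1 and 4 below. Of 14 drug transporters, 4 were higher and 10 lower, with 1 interval above 1 and 5 below and a median log2 ratio of -0.11. The phospholipid exporter Abcb4 was the farthest of them, at 6.99 RPKM with KXH and 8.83 RPKM with water (0.792, 0.692 to 0.905).

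Markers of other cell types moved beside these values. Of 12 endothelial markers that reached a mean of 1 RPKM, 12 were lower, against 55% of all genes. All listed endothelial markers summed to 655 RPKM with KXH and 727 RPKM with water. Of 11 smooth muscle and pericyte markers 10 were lower (1983 RPKM with KXH and 2031 RPKM with water), and Des, which cardiomyocytes express too, made up most of that sum, at 1549 RPKM with KXH and 1533 RPKM with water. Of 6 erythroid markers 6 were lower, with a sum of 2266 RPKM with KXH and 3347 RPKM with water (0.677), chiefly Hbb, and LOC287167 had 0 reads with KXH and 101 with water. Of 12 fibroblast markers 9 were higher (1093 RPKM with KXH and 988 RPKM with water), of 5 mesothelial and epicardial markers 4 were higher (25.9 RPKM with KXH and 21.6 RPKM with water), and of 10 cardiomyocyte markers 7 were higher. Of 10 macrophage markers 5 were higher and 5 lower. Ptprb, an endothelial marker, was listed in neither table. Cyp4b1, Fmo1 and Fmo2 had ratios of 0.780 to 0.799. The summed endothelial markers had a ratio of 0.900, and the 12 ranged from 0.816 (Flt1) to 0.986 (Eng). The 11 smooth muscle and pericyte markers ranged from 0.654 (Myh11) to 1.01 (Des). Between these lay Tagln at 0.725, Acta2 at 0.738, Notch3 at 0.770, Mylk at 0.834 and Pdgfrb at 0.839. Kcnj8 was at 0.868, Rgs5 at 0.918, Abcc9 at 0.926 and Cspg4 at 0.941. The part of these cell types in the lower and higher members was not tested, and in bulk tissue fewer cells of a type and less RNA per cell cannot be told apart.

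Most liver markers were near 0, but Ttr and Tf were not. Ttr had 24.7 RPKM with KXH and 28.2 RPKM with water, and Tf had 31.5 RPKM with KXH and 28.5 RPKM with water. Of 18 hepatocyte markers 15 were listed and 4 had a mean of at least 1 RPKM, and albumin (Alb) had 11 reads with KXH and 41 with water. Apoa2, Tat and Cps1 were listed in neither table. The hepatocyte list summed to 60.7 RPKM with KXH and 63.5 RPKM with water, chiefly from Ttr and Tf. Of the adipocyte markers, Adipoq and Retn were listed in neither table.

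The authors' coverage, the percent of a row's length that reads touch, was low for a few members. Of the 46 members with at least 15 reads in each library, 3 (Ces1d, Cyp11a1 and Cyp21a1) lay in the lowest 5% of genes of like depth in both libraries. Ces1d had reads on 61.3% of its length with KXH and 62.4% with water, whereas the median for genes with 300 to 2000 reads was 98.8% in both. Cyp11a1 was at 73.3% with KXH and 73.2% with water, where genes with 100 to 300 reads had a median of 96.9%. Ugt1a6 had 47.9% with KXH and 46.4% with water, and Ugt1a7c had 50.3% with KXH and 46.6% with water. The tables hold unique reads, per their headings, and how reads from exons common to the Ugt1a forms were counted is not given in the sources used here. Levels of Ugt1a and Ces1 rows, which have close relatives, are uncertain.

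**Figure D5:**
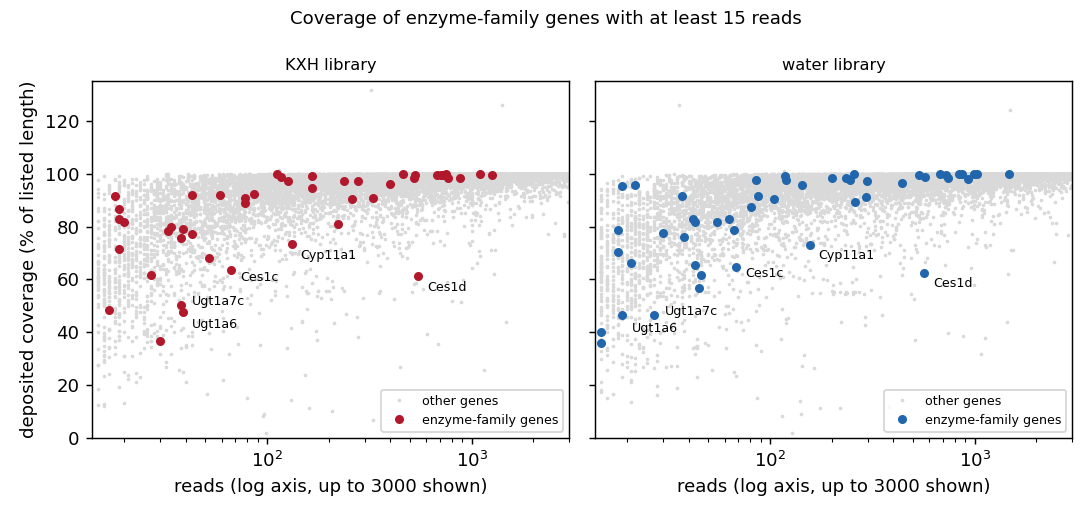
Deposited coverage (percent of the listed length) against reads (log axis) for genes with at least 15 reads, with the KXH library left and the water library right, members coloured and other genes grey. Ces1d, at 61.3% and 62.4%, and Cyp11a1, at 73.3% and 73.2%, lie below genes of like depth in both libraries.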

How the data were processed

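The protein-coding tables of 1 KXH and 1 water library were used. Per the labels' protocols, RNA came from Trizol extracts of frozen tissue and went into Illumina TruSeq RNA libraries. The submitters' processing notes name Bowtie 0.12.2 and rn6 without a role, and the sources used here give neither annotation nor use of strand. Per the file headers, the deposited counts are unique reads per gene, and the authors' RPKM values equal reads per kilobase per 1000000 reads of the table. The deposited coverage score is the percent of a gene's length with reads, and a few values pass 100. Where a table lacks a row, 0 reads were assumed.

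With 1 library per group no count test was possible. Log2 ratios used RPKM + 1 and genes whose mean reached 1 RPKM. The 95% intervals follow Clopper and Pearson (exact), applied to the KXH fraction of each gene's reads and converted with the table totals. Without molecular identifiers reads are not independent, so intervals cover counting error only. No fold is given where both libraries have at most 3 reads. Named were members with a mean of at least 3 RPKM, with at least 30 reads and an interval off 1, or with at least 4 reads in 1 table only, and up to 4 genes per partner list. Of the members, 1 enters the counts and is not reported here. Members and lists were chosen with earlier results of these data known. Ephx3, the 1.25-fold threshold, the printed promoters, the coverage check, single cell type markers and other low members were chosen after the values were seen. Other pseudocounts, filters, scalings, a length correction, a 99% interval and counts without the 7 members taken by name only were tried. The steps were tested on simulated data, in Python 3.11.15 with scipy 1.17.1, numpy 2.4.6, matplotlib 3.10.9 and pandas 2.3.3.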

Additional observations from a re-analysis of the deposited data

How the results depend on the processing

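With 1 library per group, animal-to-animal variation is unknown, and depth limits what can be seen in the 43 members with a mean under 1 RPKM. No paired analysis was possible because each group has 1 library. Members at least 1.5-fold lower numbered 1 in place of 0 with a pseudocount of 0.1 (Fmo5) and 1 with no filter on low values (Ephx3). With a 99% interval, members above 1 numbered 1 in place of 2, and members below 1 numbered 4 in place of 6. Trimmed-mean and median-of-ratios scaling each left 40 members at or above the mean of 1 RPKM. In both, members above 1 numbered 3 in place of 2, and members below 1 stayed at 6. With a threshold of 1.25-fold, 1 member was higher and 5 were lower. All 20 summed levels stayed within their counting interval under both other scalings and as shares of the table reads, and so did the ratios of 29 named members under both scalings and with the length trend removed. Trimmed-mean scaling moves all log2 ratios by 0.02.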

Other observations

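The rows with the fewest reads leaned towards the water library. Of the 25 members with 1 to 5 reads in all, 2 were listed only in the KXH table and 15 only in the water table, with 18 reads with KXH and 41 with water over the 25. Over all 1288 genes with that few reads, 28.7% were listed only in the KXH table and 34.8% only in the water table, and of the members 8% were listed only in the KXH table and 60% only in the water table. The liver-type enzymes Ces2c, Cyp3a2, Cyp3a62, Cyp3a9, Cyp2c12, Cyp2c22 and Ugt2b7 were among those listed only in the water table, each with at most 5 reads. Some low members leaned the other way, as Ugt2b1 had 5 reads with KXH and 3 with water, Cyp2d5 had 4 with KXH and 1 with water, and Ugt2b10 had 3 with KXH and 1 with water. Most of the listed hepatocyte markers also had fewer reads with KXH. Albumin had 11 reads with KXH and 41 with water, Hp 29 and 48, Ttr 243 and 298, and Pck1 4 and 11. Of these, only albumin had an interval off 1. The exceptions were Fgg, with 32 reads with KXH and 24 with water, Fga with 9 and 6, and Tf with 1016 and 985. G6pc had 1 read in each library. The cause of this lean was not tested.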
